A study of Mus musculus with 18 samples.

Results

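Ang4, Itln1, Sycn and Retnlb encode secreted or granule proteins of the gut. They are 4 of 54532 gene rows in the count table, and all 4 were among the 17692 genes that passed the filter on low counts. They were chosen by measured values: Ang4 and Sycn because they were lower in the distal colon of the FIP1 knockout than in wild type, and Ang4 and Itln1 because the change in a knockout differed between distal and proximal colon. Those 3 comparisons are given below as descriptions without a test for these genes. The working name "secretory defence genes" covers 3 of them by known function, since Sycn is known as a granule protein and not as an antimicrobial one.

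Goblet cells and other secretory cells of the colon release mucus together with proteins that bind or kill bacteria and parasites. Interleukins of type 2 immunity, such as interleukin 13, are known to raise several of these products during worm infection, while interleukin 22 raises others. Ang4 (angiogenin 4) is a ribonuclease with bactericidal activity, Itln1 (intelectin 1) is a lectin that binds microbial sugars, and Retnlb (resistin-like beta, RELM-beta) is a goblet cell product with effects on bacteria and worms. Sycn (syncollin) sits on the inner face of zymogen granule membranes in pancreatic acinar cells and takes part in exocytosis.

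The study profiled polyadenylated RNA of colonic epithelial cells from mice lacking the Rab11 effector Rab11-FIP1 (FIP1KO), mice lacking Rab11-FIP2 (FIP2KO) and BL6J wild-type mice, each from distal and proximal colon, with 3 libraries in each of 6 groups. Rab11 effectors of this family link recycling vesicles to their traffic in epithelial cells. Epithelium came from fresh, untreated tissue and was released mechanically in buffer with 30 mM EDTA. The labels give no age, no sex, no deleted exon and no strain background of the knockouts, so genotype and strain background cannot be told apart, and whether a group's 3 libraries came from separate mice is not stated, so p-values measure the spread between libraries, which may be technical.

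Library totals ran from 11193308 to 22062300 counts. Rab11fip1 transcripts were lower in both FIP1KO groups and Rab11fip2 transcripts in both FIP2KO groups, with called changes between -1.25 and -0.84 on the log2 scale. The share of counts from mitochondrially encoded genes was 24.4% ± 7.24 (SD, n = 3) in distal and 23.9% ± 3.35 in proximal wild type, against group means of 13.9% to 17.3% in the knockouts. Proximal wild-type library 2 held 124 CPM (counts scaled to the normalised library size) of 7 forebrain neuron markers, against 23.3 and 25.7 CPM in the other libraries of its group. The 7 markers also moved with genotype, with 7 called lower in FIP1KO proximal, 5 in FIP2KO proximal, 5 in FIP2KO distal and 0 in FIP1KO distal colon. Of all genes, 6.89%, 7.07%, 9.38% and 7.47% were called lower in these comparisons in turn. The part of these markers in the results was not tested. T cell markers were also higher in the knockouts, and their values stand beside the secretory gene lists further on.

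All 4 genes are protein-coding, and their positions below are on GRCm38. Ang4 (ENSMUSG00000060615) lies on the minus strand at chr14:51763878-51773590, and Itln1 (ENSMUSG00000038209) on the minus strand at chr1:171518122-171535294. Sycn (ENSMUSG00000084174) lies on the plus strand at chr7:28540885-28542209, and Retnlb (ENSMUSG00000022650) on the plus strand at chr16:48816856-48818892. Sycn lies within the span of Samd4b, which is on the other strand, but shares 0 exon bases with it, and Samd4b group means stayed between 23.3 and 34.4 CPM.

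Promoter windows of 300 bases were found for 3 of the 4 genes in RefSeq (GRCm38.p6), from 250 bases before to 50 bases after the start site. Retnlb had no entry, and the 3 found belong to the genes with low distal levels in both knockouts. Capitals mark the motif letters found, 5′ to 3′ on the gene's strand. The windows are chr14:51773541-51773840 (minus strand) for Ang4, chr1:171535245-171535544 (minus strand) for Itln1 and chr7:28540635-28540934 (plus strand) for Sycn.
Ang4: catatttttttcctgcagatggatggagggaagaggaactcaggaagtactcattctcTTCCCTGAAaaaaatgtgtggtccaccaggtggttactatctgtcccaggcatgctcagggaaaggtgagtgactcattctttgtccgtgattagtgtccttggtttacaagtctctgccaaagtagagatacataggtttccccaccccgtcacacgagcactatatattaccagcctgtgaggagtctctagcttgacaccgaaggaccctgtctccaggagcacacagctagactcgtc
Itln1: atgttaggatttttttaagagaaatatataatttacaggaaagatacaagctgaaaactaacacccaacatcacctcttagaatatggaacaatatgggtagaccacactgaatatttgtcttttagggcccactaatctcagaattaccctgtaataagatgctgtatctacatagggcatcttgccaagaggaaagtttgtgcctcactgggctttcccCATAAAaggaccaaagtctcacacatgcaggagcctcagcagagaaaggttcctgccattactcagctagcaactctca
Sycn: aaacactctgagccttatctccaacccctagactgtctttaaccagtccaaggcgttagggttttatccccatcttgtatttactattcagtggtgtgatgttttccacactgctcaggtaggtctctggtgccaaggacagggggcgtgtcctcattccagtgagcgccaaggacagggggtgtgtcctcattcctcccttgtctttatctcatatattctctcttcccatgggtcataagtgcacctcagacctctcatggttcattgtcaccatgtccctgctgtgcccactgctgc

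Each motif was searched on both strands, and the motifs do not overlap one another in these windows. TTCNNNGAA, a form of the letters bound by STAT factors, occurred once, in Ang4 at position -192 from the start site, and is held by 8.3% of 32851 RefSeq promoter windows of the same length. TTTATG, a form bound by the intestinal CDX factors, occurred once, in Itln1 at position -29, and is held by 11.9% of the windows. It lies on the other strand, so the gene's strand reads CATAAA there. CAGCTG, an E-box form, and TATAAA, the TATA box core, are held by 16.3% and 13.6% of the windows and by 0 of these 3. Variants of these letters were not searched. Sycn held 0 of the 4 motifs, so no motif of the set was shared among the 3 windows. A match is a description of the letters and does not show a bound site.

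In wild-type distal colon Sycn and Ang4 were the most abundant of the 4 and Itln1 the least. On the deposited FPKM scale, which divides by gene length and library total, the level was 1048 ± 274 for Sycn (SD, n = 3), 581 ± 146 for Ang4, 106 ± 57.1 for Retnlb and 10.6 ± 4.51 for Itln1. In the proximal colon of FIP2KO the order by FPKM was different, with Retnlb at 625 ± 165, Ang4 at 23.9 ± 12.5, Sycn at 22.6 ± 8.04 and Itln1 at 8.53 ± 4.37. These are bulk samples, so fewer cells of a type and less RNA per cell cannot be told apart for any of the genes.

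Ang4 had its highest levels in wild-type distal colon and was nearly lost there in both knockouts. Its level was 436, 519 and 308 CPM in wild-type libraries 1, 2 and 3. It was 1.47, 4.95 and 7.66 CPM in FIP1KO and 2.48, 7.685 and 2.71 CPM in FIP2KO. All 6 knockout libraries lay far below all wild-type libraries, and the knockouts overlapped each other. The lowest of these values rested on 27 counts, with an exact Poisson 95% interval of 0.971 to 2.14 CPM that covers counting error only.

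In proximal colon Ang4 was more uneven. The wild-type libraries held 75.8, 271 and 31.5 CPM, the FIP1KO libraries 26.3, 337 and 21.5 CPM and the FIP2KO libraries 12.15, 26.7 and 11.6 CPM. Library 2 was the highest in each of these groups, by a wide margin in wild type and FIP1KO. FIP2KO lay wholly below wild type, while FIP1KO spanned the wild-type range. By group mean the order of Ang4 was wild-type distal (421 ± 107, SD, n = 3), FIP1KO proximal (128 ± 181), wild-type proximal (126 ± 128), FIP2KO proximal (16.8 ± 8.55), FIP1KO distal (4.69 ± 3.10) and FIP2KO distal (4.29 ± 2.94). Among neighbours in that order, libraries did not overlap between wild-type proximal and FIP2KO proximal, nor between FIP2KO proximal and FIP1KO distal.

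Sycn was lower in both knockouts and in both segments. In distal colon it stood at 711, 526 and 529 CPM in wild type, 32.6, 43.9 and 31.6 CPM in FIP1KO, and 67.0, 75.0 and 41.0 CPM in FIP2KO. In proximal colon it stood at 52.8, 117 and 26.2 CPM in wild type, 3.21, 5.51 and 10.4 CPM in FIP1KO, and 10.01, 17.4 and 9.99 CPM in FIP2KO. Within each segment every wild-type library was above every knockout library, and within each genotype every distal library was above every proximal one. The order of group means was wild-type distal (589 ± 106 CPM, SD, n = 3), wild-type proximal (65.3 ± 46.7), FIP2KO distal (61.0 ± 17.7), FIP1KO distal (36.0 ± 6.87), FIP2KO proximal (12.5 ± 4.28) and FIP1KO proximal (6.38 ± 3.68). Neighbours in that order were separate between both wild-type groups and between FIP1KO distal and FIP2KO proximal, and the other neighbours overlapped.

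Itln1 was scarce throughout, and its mean was higher in distal colon in wild type but in proximal colon in both knockouts. The distal libraries held 8.79, 12.04 and 4.55 CPM in wild type, 0.709, 1.48 and 1.42 CPM in FIP1KO, and 0.982, 1.71 and 1.02 CPM in FIP2KO. The proximal libraries held 3.72, 4.94 and 0.750 CPM in wild type, 3.01, 34.1 and 10.4 CPM in FIP1KO, and 5.20, 10.35 and 4.24 CPM in FIP2KO. Distal knockout libraries were all below distal wild type, whereas proximal knockout libraries overlapped proximal wild type at its upper end. Group means ran from 15.8 ± 16.2 CPM in FIP1KO proximal through wild-type distal (8.46 ± 3.76), FIP2KO proximal (6.60 ± 3.29) and wild-type proximal (3.14 ± 2.16) to FIP2KO distal (1.24 ± 0.41) and FIP1KO distal (1.21 ± 0.43), and every pair of neighbours overlapped. The lowest proximal wild-type value rested on 10 counts (95% interval 0.359 to 1.38 CPM).

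Retnlb did not share the low distal levels of the other 3 genes in the knockouts. In distal colon it stood at 76.8, 119 and 32.5 CPM in wild type, 75.7, 303 and 37.6 CPM in FIP1KO, and 42.4, 102 and 78.3 CPM in FIP2KO, and the 3 groups overlapped. In proximal colon it stood at 66.2, 177 and 67.9 CPM in wild type, 120.5, 685 and 371 CPM in FIP1KO, and 391, 551 and 353 CPM in FIP2KO. All FIP2KO proximal libraries were above all wild-type ones, while the lowest FIP1KO proximal library fell within the wild-type range. The order of means was FIP2KO proximal (432 ± 105 CPM, SD, n = 3), FIP1KO proximal (392.2 ± 283), FIP1KO distal (139 ± 143), wild-type proximal (104 ± 63.2), wild-type distal (76.0 ± 43.0) and FIP2KO distal (74.3 ± 30.1), and every pair of neighbours overlapped.

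**Figure D1:**
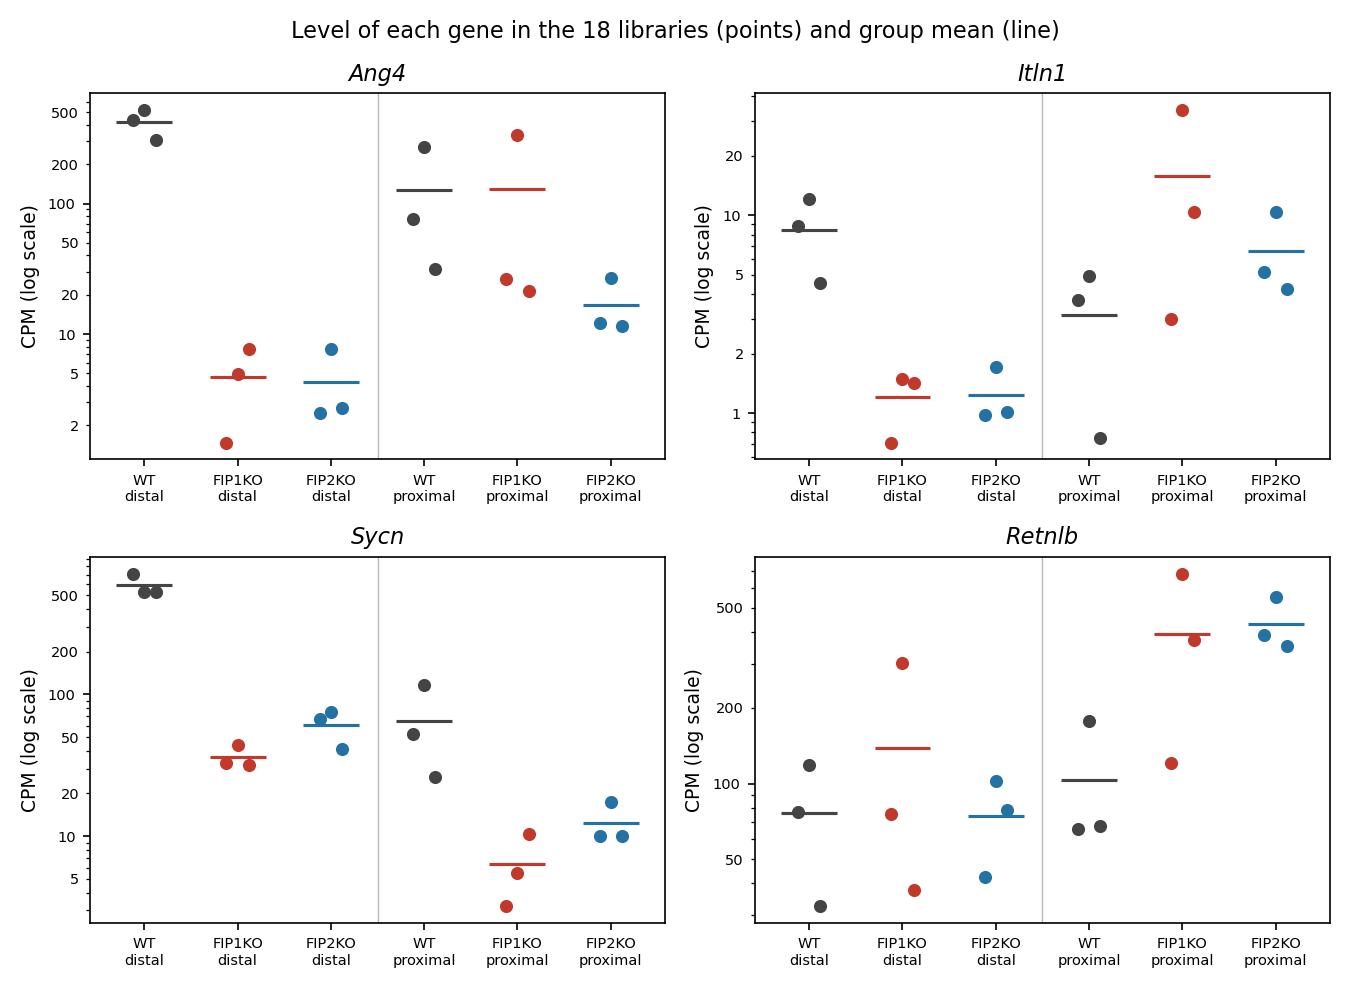
Level of Ang4, Itln1, Sycn and Retnlb in CPM on a log axis, 1 panel a gene, with 1 point for each of 3 libraries and a line at the mean of each of the 6 groups. The 6 distal knockout libraries of Ang4 lie between 1.47 and 7.685 CPM, below wild-type distal at 308 to 519 CPM, and proximal library 2 of FIP1KO stands at 337 CPM.

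The question of the first comparison was what losing Rab11-FIP1 does in distal colon, and it chose the members. There Ang4 differed by -6.50 ± 1.07 (log2 change ± SE, edgeR quasi-likelihood fit), Sycn by -4.03 ± 0.46 and Itln1 by -2.83 ± 0.73, with no test given. These correspond to levels 90.5-fold, 16.4-fold and 7.10-fold lower than wild type. Retnlb differed by 0.87 ± 0.65, a value that became -0.44 when FIP1KO distal library 2 was left out. Of all genes tested, 8.84% were called higher and 7.47% lower in this comparison at a Benjamini-Hochberg adjusted p under 0.05, the threshold used throughout.

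Loss of Rab11-FIP2 in distal colon, the next comparison, used the same wild-type libraries, so its tests are not independent of the choice of members. For Ang4 and Itln1 it is also an arm of the segment difference in FIP2KO that was used to choose them. The proximal knockout comparisons and the segment comparisons below are parts of such differences as well. Every later test shares libraries with the choice, so the adjusted p-values of these genes are not independent support. In FIP2KO distal colon Ang4, Itln1 and Sycn fell and Retnlb did not pass the test. That is 3 of 4 lower and 0 higher, where 9.38% of all genes were called lower and 9.13% higher. Ang4 fell by 6.59 ± 1.06 on the log2 scale (96.7-fold, adjusted p = 0.000311, edgeR quasi-likelihood test, as for all adjusted p-values here unless another tool is named). Sycn fell by 3.27 ± 0.44 (9.65-fold, adjusted p = 5.08e-05). Itln1 fell by 2.75 ± 0.71 (6.75-fold, adjusted p = 0.0111), and Retnlb was at -0.03 ± 0.65 (adjusted p = 0.981). The 3 calls held when any 1 of the 18 libraries was left out.

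In proximal colon only Sycn was called lower in FIP1KO. Among the 4 genes 1 was called higher and 1 lower, beside 6.7% and 6.89% of all genes. Sycn fell by 3.32 ± 0.46 (9.99-fold, adjusted p = 8.09e-05), and this call held when any library was left out. Itln1 rose by 2.36 ± 0.68 (5.13-fold, adjusted p = 0.0263), although its groups overlapped. Leaving out FIP1KO proximal library 2 ended the call (1.15, adjusted p = 0.255). So did leaving out library 1 of proximal wild type (2.54, adjusted p = 0.0613), leaving out its library 3 (1.87, adjusted p = 0.0958), and fitting the compared libraries alone (2.38, adjusted p = 0.108).

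Ang4 in the same comparison moved with single libraries. Its change was 0.03 ± 0.82 (adjusted p = 0.991) over all libraries and -2.38 ± 0.72 (adjusted p = 0.0397) without FIP1KO proximal library 2, in which Ang4 stood at 337 CPM. Leaving out library 1, 2 or 3 of proximal wild type gave -0.23, 1.25 and -0.43, none of them called. Retnlb was at 1.92 ± 0.67 (adjusted p = 0.063). It passed the threshold when library 2 of proximal wild type was left out (2.55, adjusted p = 0.0368). The same held for FIP1KO proximal library 1 (2.37, adjusted p = 0.033), FIP1KO distal library 2 (1.94, adjusted p = 0.0257) and FIP1KO distal library 3 (adjusted p = 0.0418).

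In the proximal colon of FIP2KO, Sycn and Ang4 fell and Retnlb rose. This was 2 of 4 lower and 1 higher, beside 7.07% and 7.6% of all genes. Sycn fell by 2.38 ± 0.44 (5.21-fold, adjusted p = 0.00144), again in every refit that left out a library, although the change was only -1.65 without wild-type proximal library 2. Ang4 fell by 2.90 ± 0.89 (7.49-fold, adjusted p = 0.0352) with no overlap between the groups. Leaving out library 2 of proximal wild type ended the Ang4 call (-1.67, adjusted p = 0.177). The call also ended when any 1 of the 3 FIP2KO proximal libraries was left out, with adjusted p-values of 0.121, 0.0561 and 0.113.

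Retnlb rose by 2.06 ± 0.67 in that comparison (4.18-fold, adjusted p = 0.0453), with no overlap between the groups. Its adjusted p lay close to the threshold and was above it in 8 of the 18 refits that left out a library, with changes from 1.83 to 2.70 over all 18. The largest adjusted p-values, 0.153 and 0.148, came without wild-type proximal library 3 and library 1. Itln1 was at 1.10 ± 0.68 (adjusted p = 0.292).

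Set directly against each other, the knockouts gave no called difference for these genes. In distal colon 0 of 4 were called, beside 1.22% of all genes higher and 0.644% lower in FIP1KO, and 0 of 4 had an unadjusted p under 0.05. The changes, FIP1KO over FIP2KO, were 0.10 ± 0.96 for Ang4, -0.07 ± 0.77 for Itln1, -0.76 ± 0.41 for Sycn and 0.90 ± 0.65 for Retnlb. In proximal colon 0 of 4 were called, beside 1.33% of all genes higher and 1.42% lower. Here Ang4 at 2.93 ± 0.89 (adjusted p = 0.0817) and Sycn at -0.94 ± 0.44 (adjusted p = 0.266) had an unadjusted p under 0.05. DESeq2 called 1 of the 4 there, Ang4 (2.95, adjusted p = 0.0458). The Ang4 difference was 0.51 without FIP1KO proximal library 2. It became a call when library 2 of proximal wild type (2.92, adjusted p = 0.0446) or FIP1KO proximal library 3 (3.44, adjusted p = 0.0376) was left out.

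Sycn was higher in distal than in proximal colon in all 3 genotypes. Proximal levels were lower by 3.18 ± 0.44 on the log2 scale in wild type (9.05-fold, adjusted p = 4e-05), by 2.47 ± 0.45 in FIP1KO (adjusted p = 0.00132) and by 2.29 ± 0.44 in FIP2KO (adjusted p = 0.00161). In wild type Sycn was the 1 member called of 4, beside 8.96% of all genes called higher and 7.39% called lower in proximal colon. Ang4 at -1.74 ± 0.84 (adjusted p = 0.181) and Itln1 at -1.46 ± 0.68 (adjusted p = 0.162) did not pass, and Ang4 did once library 2 of proximal wild type was left out (-2.97, adjusted p = 0.0422). Retnlb was at 0.44 ± 0.65 (adjusted p = 0.716).

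Within FIP1KO, Ang4 and Itln1 had the opposite order of segments to Sycn. Of the 4 genes 2 were called higher and 1 lower in proximal colon, beside 2.94% and 3.65% of all genes. Ang4 was higher in proximal colon by 4.78 ± 1.00 (27.5-fold, adjusted p = 0.00418), but by 2.37 (adjusted p = 0.0678) without FIP1KO proximal library 2. Itln1 was higher by 3.73 ± 0.74 (13.2-fold, adjusted p = 0.00275) and stayed called in every refit that left out a library, at 2.51 without that same library. Retnlb was at 1.502 ± 0.66 (adjusted p = 0.244), and at 2.81 (adjusted p = 0.013) without FIP1KO distal library 2.

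Within FIP2KO the same counts of 2 higher and 1 lower were found, beside 4.99% and 4.49% of all genes. Itln1 was higher in proximal colon by 2.40 ± 0.71 (5.27-fold, adjusted p = 0.0359) and Retnlb by 2.54 ± 0.68 (5.81-fold, adjusted p = 0.021). Both calls were near the threshold. Leaving out any 1 of the 3 FIP2KO distal libraries ended the Itln1 call, with adjusted p-values of 0.121, 0.0677 and 0.127, and so did leaving out FIP2KO proximal library 1 (2.54) or 2 (1.91). The Retnlb call ended without FIP2KO distal library 1 (2.26, adjusted p = 0.0952), FIP2KO distal library 3 (2.58, adjusted p = 0.0714) and FIP2KO proximal library 2. Ang4 was higher by 1.95 ± 0.92 (adjusted p = 0.244) with no overlap between the segments. The p-values above come from a fit without pairing. Same-numbered FIP2KO libraries deviated together across segments, and with the number as a block within genotypes Ang4 was at 2.03 ± 0.61 (adjusted p = 0.0414). The calls of Itln1, Retnlb and Sycn held with that block.

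The difference between a knockout's change in proximal colon and its change in distal colon was used to choose Ang4 and Itln1 and is given without a test. For FIP1KO it was 6.53 ± 1.30 on the log2 scale for Ang4, 5.19 ± 1.00 for Itln1, 0.71 ± 0.60 for Sycn and 1.06 ± 0.92 for Retnlb. For FIP2KO it was 3.69 ± 1.25 for Ang4, 3.86 ± 0.98 for Itln1, 0.89 ± 0.59 for Sycn and 2.10 ± 0.93 for Retnlb. All 8 values were above 0. Ang4 and Itln1, chosen on this difference, had larger values than Sycn in both knockouts, so that order is part of the choice and not a result. Without FIP1KO proximal library 2 the FIP1KO values were 4.11 for Ang4 and 3.97 for Itln1. The FIP1KO and FIP2KO values share the wild-type libraries.

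**Figure D2:**
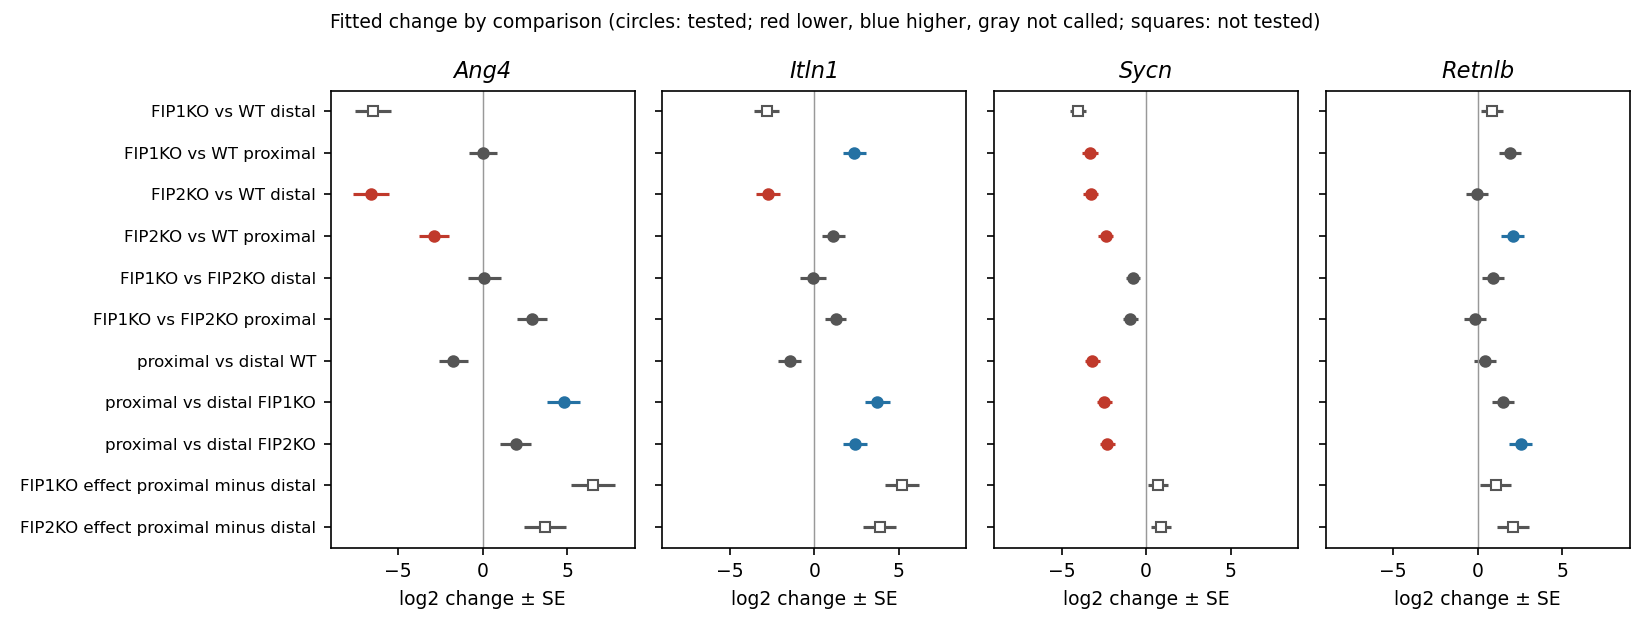
Fitted log2 change of each gene (1 panel a gene) in the 11 comparisons, with bars of 1 SE from the edgeR fit; circles were tested (red called lower, blue called higher, gray not called) and open squares are the comparisons that chose the genes. In distal colon Ang4, Sycn and Itln1 lie between -6.59 and -2.75 in both knockouts, and in proximal colon Sycn lies at -3.32 and -2.38 while Itln1 and Retnlb lie above 0.

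The deviations of the 4 genes between libraries of the same group were compared after their values had been seen. Itln1 and Retnlb had the same highest library in 6 of 6 groups, and Ang4 shared its highest library with Itln1 in 5 of 6 and with Retnlb in 5 of 6. Sycn shared its highest library with Ang4 in 3, with Itln1 in 4 and with Retnlb in 4 of 6 groups. All 4 peaked in the same library in 3 of 6 groups, which was library 2 of FIP2KO distal, wild-type proximal and FIP2KO proximal. Across the 18 libraries, the deviations of log2 CPM from the group mean had Pearson's r of 0.85 between Ang4 and Itln1, 0.67 between Itln1 and Retnlb, 0.65 between Itln1 and Sycn, 0.52 between Ang4 and Retnlb, 0.51 between Sycn and Retnlb and 0.42 between Ang4 and Sycn. These are descriptions over libraries that share depth and composition within each library.

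The spread between replicates was widest for Ang4 in FIP1KO proximal colon, where the highest library was 15.7 times the lowest, and smallest for Sycn in wild-type distal colon, at 1.35 times. The highest library of a group was also highest in mitochondrial share in 3 of 6 groups for Ang4, 4 for Itln1, 2 for Sycn and 4 for Retnlb. Proximal wild-type library 2 had 27.7% and FIP1KO proximal library 2 had 19.7% mitochondrial counts, each the highest of its group. Deviations of the median of 23 goblet cell genes had r of 0.20 with Ang4, 0.38 with Itln1, 0.52 with Sycn and 0.72 with Retnlb. The part of these library differences in the results was not tested, except that refits without mitochondrially encoded genes changed no call of the 4 genes.

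**Figure D3:**
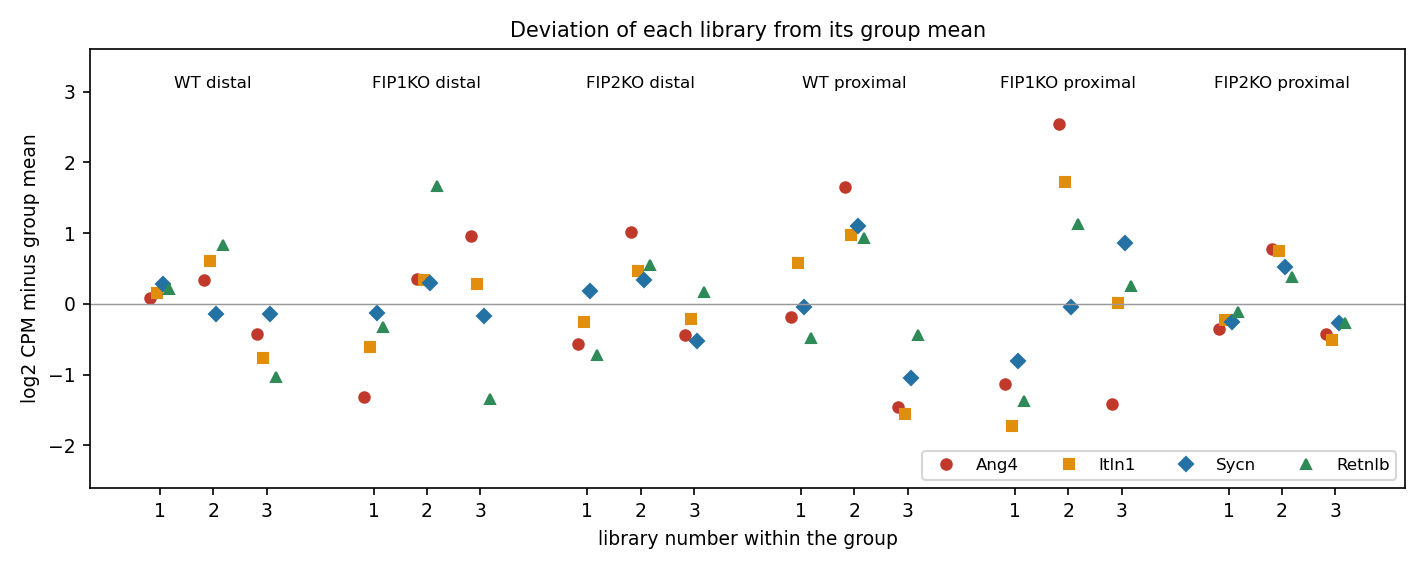
Deviation of log2 CPM from the group mean for the 4 genes (colours and symbols), 1 position for each of the 18 libraries, ordered by group and library number. In proximal library 2 of wild type and of FIP2KO all 4 symbols lie above 0, and in FIP1KO proximal library 2 Ang4, Itln1 and Retnlb do while Sycn lies near 0.

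The closest relatives of these genes were mostly silent. Of 11 listed relatives 9 were in the files and 2, Ang and Rnase4, were tested; Itlnb and Itln2 were not analysed here. Rnase1 reached 132 counts (6.82 CPM) in FIP2KO distal library 1, which also held 207 CPM of 12 pancreatic digestive enzyme genes, described further on. Ang2, Ang5, Ang6, Retn, Retnla and Retnlg had at most 5 counts in any library. Reads of near-identical copies could not be separated from those of the 4 genes, and how the counting treated such reads is not given in the sources used here.

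Ang, the angiogenin made in many tissues, fell in FIP1KO and differed between the knockouts. Its group means in distal colon were 13.9 ± 0.70 CPM in wild type (SD, n = 3), 4.04 ± 0.43 in FIP1KO and 15.9 ± 1.98 in FIP2KO. In proximal colon they were 35.2 ± 9.60, 5.51 ± 0.76 and 26.1 ± 3.75 CPM. Ang fell in FIP1KO by 1.79 ± 0.20 on the log2 scale in distal (adjusted p = 7.92e-06) and by 2.67 ± 0.20 in proximal colon (adjusted p = 5.97e-08). In FIP2KO it was at 0.20 ± 0.19 (adjusted p = 0.503) and -0.43 ± 0.18 (adjusted p = 0.124). The direct comparison of FIP1KO with FIP2KO gave -1.98 ± 0.20 in distal (adjusted p = 6.8e-06) and -2.24 ± 0.20 in proximal colon (adjusted p = 1.12e-06).

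Rnase4, a ribonuclease gene that shares promoters with Ang, had the same calls in these comparisons. It fell in FIP1KO by 0.79 ± 0.24 in distal (adjusted p = 0.0319) and by 1.39 ± 0.25 in proximal colon (adjusted p = 0.000769), and was not called in FIP2KO. Against FIP2KO it was lower in FIP1KO by 1.02 ± 0.24 in distal (adjusted p = 0.0388) and by 1.49 ± 0.25 in proximal colon (adjusted p = 0.00197). Ang (chr14:51091150-51102009) and Rnase4 (chr14:51091077-51106151) overlap on the plus strand of GRCm38, so their counts are uncertain relative to each other.

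**Figure D4:**
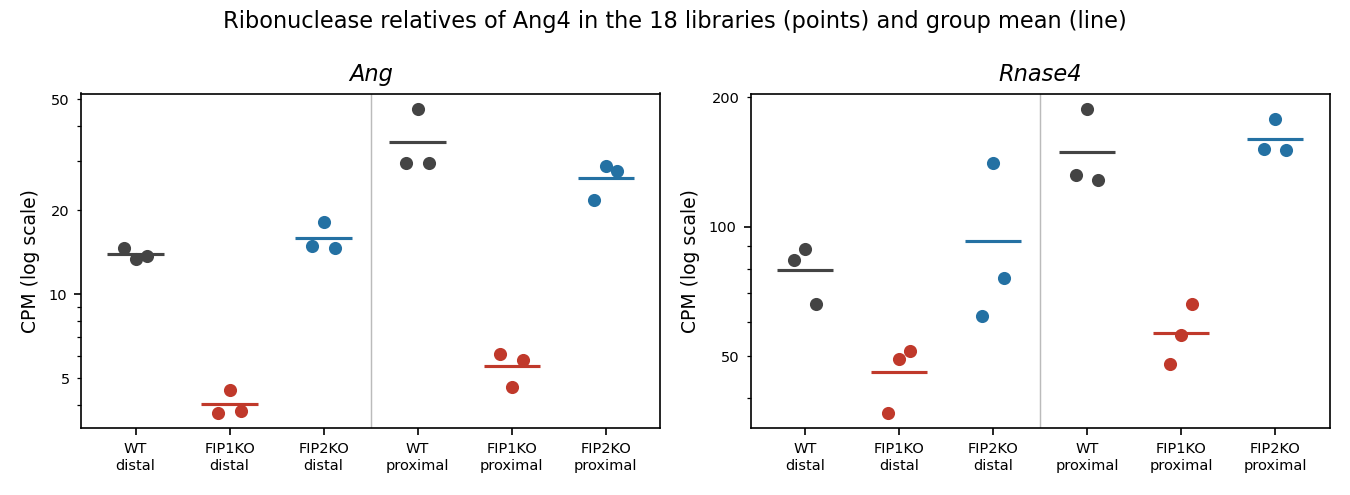
Level of Ang and Rnase4 in CPM on a log axis, with 1 point for each of 3 libraries and a line at the mean of each of the 6 groups. For Ang the FIP1KO means of 4.04 and 5.51 CPM lie below those of wild type and FIP2KO in both segments.

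Other secreted antimicrobial genes were called in both directions. Of 22 tested in a list of 28, 8 were called higher and 2 lower in FIP1KO distal colon, and 6 and 4 in FIP1KO proximal colon. In FIP2KO the counts were 9 and 2 in distal and 9 and 4 in proximal colon. The shares of all genes called higher and lower were 8.84% and 7.47%, 6.7% and 6.89%, 9.13% and 9.38%, and 7.6% and 7.07% in these 4 comparisons in turn. The list's median log2 change was 0.66, 0.49, 0.77 and 0.61 in these 4 comparisons in turn, where the median of all genes tested lay between -0.02 and 0. In wild-type distal colon, where Ang4 was at its highest, Reg3g, a bactericidal lectin, stood at 0.43 ± 0.52 CPM (SD, n = 3) and Reg3b, a related lectin, at 2.37 ± 2.88 CPM.

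In distal FIP1KO, Pla2g2a, a secreted phospholipase, rose by 6.07 ± 0.36 on the log2 scale (adjusted p = 4.62e-09), Reg3g by 9.72 ± 0.79 (adjusted p = 1.57e-07) and Reg3b by 9.51 ± 0.96 (adjusted p = 1.95e-06). S100a8, a calprotectin subunit, had 0 counts in the 3 wild-type distal libraries and 78 in the FIP1KO ones. In distal FIP2KO the first 4 by adjusted p were Slpi, a protease inhibitor with antibacterial activity (4.83 ± 0.49), Reg3g (6.45 ± 0.75), Pla2g2a (2.62 ± 0.32) and Ltf, lactoferrin (5.72 ± 0.71), all called higher. The genes called lower in distal colon, named after their values were seen, were Wfdc2, a protease inhibitor gene, and Mptx1, a mucosal pentraxin, in FIP1KO. Mptx1 stood at 6453 ± 1541 CPM in wild-type distal colon (SD, n = 3), 565 ± 241 in FIP1KO (-3.51 ± 0.89, adjusted p = 0.0106) and 2221 ± 1098 in FIP2KO (-1.54 ± 0.82, adjusted p = 0.203). Wfdc2 was at 184 ± 9.41, 78.1 ± 9.15 and 58.3 ± 11.2 CPM and fell in both knockouts (adjusted p = 0.00962 and 0.0012), and Sprr2a2, a small proline-rich protein gene, was the other gene called lower in FIP2KO. C57BL/6 mice carry a known frameshift in Pla2g2a, and the strain background of the knockouts is not in the labels. Of the genes named here, Pla2g2a differed between the knockouts in both segments, at 3.45 ± 0.31 (adjusted p = 1.96e-06) and 3.78 ± 0.33 (adjusted p = 9.77e-07) for FIP1KO over FIP2KO.

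In proximal colon the 4 antimicrobial genes called lower in FIP1KO included Defb37. This beta-defensin gene went from 8.65 ± 4.05 CPM in wild type (SD, n = 3) to 0.27 ± 0.01 in FIP1KO (log2 change -4.95 ± 0.57, adjusted p = 9.41e-05). It had 0 counts in all distal libraries. Pla2g2a rose by 8.18 ± 0.46, Reg3b by 5.15 ± 0.77 and Reg3g by 4.88 ± 0.58 in FIP1KO, and in FIP2KO Pla2g2a rose by 4.39 ± 0.47, Ltf by 5.90 ± 0.77, Reg3b by 3.97 ± 0.73 and Reg3g by 3.62 ± 0.55, each with an adjusted p under the threshold. Between the knockouts, 3 of the 22 genes were called higher and 0 lower in distal FIP1KO, and 1 higher and 2 lower in proximal FIP1KO.

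**Figure D5:**
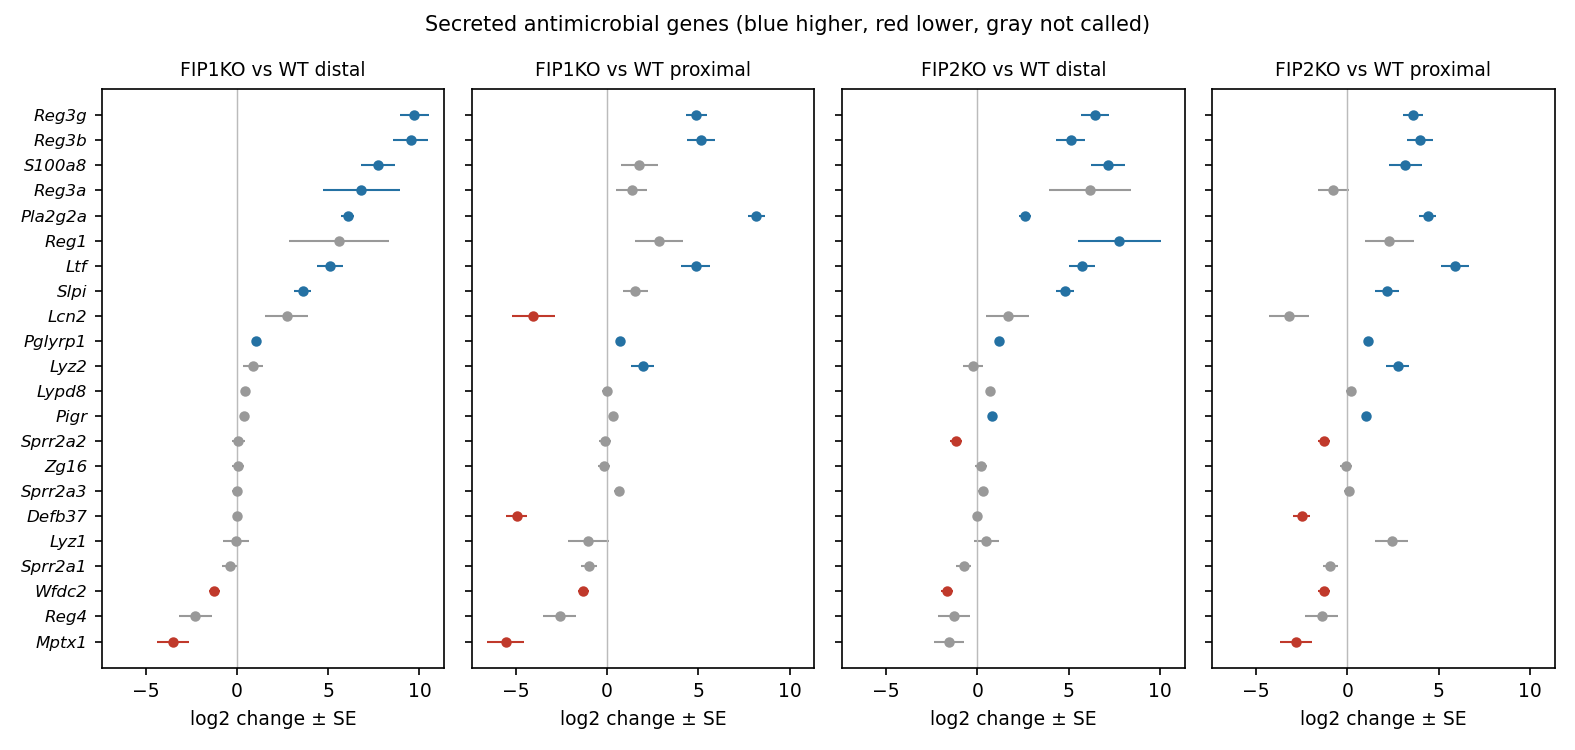
Log2 change of the tested secreted antimicrobial genes in each knockout against wild type, as points with bars of 1 SE (blue called higher, red called lower, gray not called), in distal and proximal colon; points of genes with 0 counts in a group depend on the fit's prior. Reg3g, Reg3b and Pla2g2a lie well above 0 in all 4 comparisons, at 9.72, 9.51 and 6.07 in distal FIP1KO, and Defb37 lies at -4.95 in proximal FIP1KO.

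Most of 23 general goblet cell genes were not called in any 1 comparison. Of them, 0 were called higher and 3 lower in FIP1KO distal, 0 and 2 in FIP1KO proximal, 0 and 5 in FIP2KO distal and 2 and 1 in FIP2KO proximal colon, with median changes of -0.15, -0.08, -0.36 and 0.19. The 5 lower in FIP2KO distal colon stand beside 9.38% of all genes called lower there, and the 3 in FIP1KO distal colon beside 7.47%. Klk1, a kallikrein, fell by 1.92 ± 0.28 and Scin, an actin-severing protein, by 0.97 ± 0.17 in FIP1KO distal colon. Muc2, the main gel-forming mucin, was at 0.05 ± 0.32 there (adjusted p = 0.94) and at -0.48 ± 0.32 in FIP2KO distal colon (adjusted p = 0.323). Clca1, a goblet cell protease, was at -0.88 ± 0.41 (adjusted p = 0.158) and -1.11 ± 0.41 (adjusted p = 0.0657), and Zg16 and Fcgbp were not called in any of the 4 comparisons. The summed goblet list ran from 18970 to 20260 CPM in wild-type distal libraries, 13050 to 15770 CPM in FIP1KO and 10690 to 13890 CPM in FIP2KO. Most of this difference lay in Clca1, at 8996, 4905 and 4169 CPM in the same groups, which was not called. The lower sum therefore does not describe the list as a whole. The part of goblet cell genes in the changes of the 4 genes was not tested.

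Among Paneth and deep crypt secretory genes, 11 of 22 passed the filter, and 10 or 11 of the 22 had 0 counts in every library of a group. Of the 11 tested, 2 were called higher and 2 lower in each distal comparison, 1 and 0 in FIP1KO proximal and 2 and 0 in FIP2KO proximal colon. Of all genes, 8.84% were called higher and 7.47% lower in FIP1KO distal colon, and 9.13% and 9.38% in FIP2KO distal colon. In proximal colon these shares were 6.7% and 6.89% in FIP1KO and 7.6% and 7.07% in FIP2KO. In distal FIP1KO, Dll1, a Notch ligand, fell by 1.54 ± 0.25 (adjusted p = 0.000338), and Mmp7, the protease that activates alpha-defensins, rose by 3.59 ± 0.77 (adjusted p = 0.00344).

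Some genes of the type 2 cytokine axis were called higher in the knockouts. Of 15 tested in a list of 22, 6 were higher in FIP1KO distal and 4 in each of FIP1KO proximal, FIP2KO distal and FIP2KO proximal colon, with 0 lower, beside 8.84%, 6.7%, 9.13% and 7.6% of all genes called higher. In FIP1KO distal colon Il4ra, the receptor chain for interleukins 4 and 13, rose by 1.63 ± 0.18 (adjusted p = 5.86e-06) and Mcpt1, a mucosal mast cell protease, by 3.73 ± 0.64 (adjusted p = 0.00055). In FIP2KO distal colon Il4ra rose by 1.38 ± 0.18 and Mcpt1 by 3.03 ± 0.64. The cytokines themselves were scarce: Il5, Il13 and Il25 had at most 8 counts over the 3 libraries of a group, and Il4 and Il33 were not called in any of the 4 comparisons. The summed level of the 22 genes was lower in distal knockout libraries, at 7216 to 7901 CPM in FIP1KO and 3934 to 7206 CPM in FIP2KO, than in wild type, at 10800 to 12200 CPM. Clca1 and Fcgbp, also in the goblet cell list, made up most of this sum. In distal colon Clca1 stood at 8996 CPM in wild type, 4905 in FIP1KO and 4169 in FIP2KO. Fcgbp stood at 2437, 2200 and 1466 CPM in the same groups. Neither was called there, so the lower sum does not describe the other genes of the axis.

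In the interleukin 22 and 17 axis 13 of 17 genes were tested, and 5 were called higher in each of the 4 knockout comparisons, with 1, 1, 2 and 1 lower in FIP1KO distal, FIP1KO proximal, FIP2KO distal and FIP2KO proximal colon. Of all genes, 8.84%, 6.7%, 9.13% and 7.6% were called higher and 7.47%, 6.89%, 9.38% and 7.07% lower in these comparisons. Il22, Il17a and Il17f had at most 7, 4 and 14 counts over the 3 libraries of a group. Besides Reg3g and Reg3b, which are also in the antimicrobial list, Fut2, a fucosyltransferase of the epithelial surface, rose by 1.77 ± 0.19 and Socs3, a feedback inhibitor of cytokine signalling, by 3.11 ± 0.47 in FIP1KO distal colon. Tuft cell genes, the source of interleukin 25, went the other way. Of 17 tested, 10, 8, 7 and 9 were called lower in the same order of comparisons and 0, 0, 0 and 1 higher, beside the shares of all genes given above. Dclk1 fell by 1.503 ± 0.25 in FIP1KO distal colon (adjusted p = 0.000492).

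Markers of lymphocytes were higher in the knockouts. Of 9 T cell markers 6 were called higher and 0 lower in each knockout comparison, where 6.7% to 9.13% of all genes were called higher, and their summed level was 2.52 to 6.02 CPM in wild-type distal libraries, 18.4 to 21.8 CPM in FIP1KO and 18.7 to 30.9 CPM in FIP2KO. In proximal libraries the sums were 10.3 to 13.7 CPM in wild type, 35.9 to 60.5 CPM in FIP1KO and 98.3 to 122.8 CPM in FIP2KO. Of 7 B and plasma cell markers 6, 2, 1 and 7 were higher in FIP1KO distal, FIP1KO proximal, FIP2KO distal and FIP2KO proximal colon, with sums of 6.52 to 32.8 CPM in wild-type distal libraries and 267 to 414 CPM in FIP1KO distal ones. Every marker of both lists had counts in every group. Of 8 macrophage markers 1, 1, 0 and 1 were called higher in the same order. Of 8 epithelial markers 1 was called higher in FIP1KO distal and 3 in FIP2KO distal colon and 0 in proximal colon, and their sum was 8738 to 11080 CPM in wild-type distal, 12000 to 14170 in FIP1KO distal and 14280 to 16080 in FIP2KO distal libraries. Epcam, 1 of them, lay between group means of 1479 and 1968 CPM and was not called. The part of these cells in the changes of the 4 genes was not tested.

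Sycn and 22 exocrine pancreas markers were compared because Sycn is a pancreatic granule gene. Of 11 tested markers 0, 0, 2 and 0 were called higher and 2, 1, 2 and 0 lower in FIP1KO distal, FIP1KO proximal, FIP2KO distal and FIP2KO proximal colon. Of all genes, 8.84%, 6.7%, 9.13% and 7.6% were called higher and 7.47%, 6.89%, 9.38% and 7.07% lower. The median log2 change of the 11 markers was 0.36, -0.53, 1.16 and -0.78 in the same order. The sum over all 22 was 442 to 489 CPM in wild-type distal, 242 to 355 CPM in FIP1KO distal and 263 to 503 CPM in FIP2KO distal libraries. Cela1, described below, made up most of it in wild-type distal libraries. A sum over 12 digestive enzyme genes, a subset chosen after the values were seen, was 207 CPM in FIP2KO distal library 1, 31.4 CPM in FIP1KO distal library 2 and at most 5.43 CPM in the other 16 libraries. Wild-type distal libraries, with 526 to 711 CPM of Sycn, held 0.134 to 1.88 CPM of these enzymes. FIP2KO distal library 2 had 75.0 CPM of Sycn with 3.37 CPM of enzymes. The Sycn calls held without either of the high libraries, but both are knockout libraries. Pancreatic RNA in them could only raise Sycn in a knockout, so these refits cannot test its part in the lower levels. That part was not tested. Cela1, an elastase and also chosen after its values were seen, was 322 ± 35.9 CPM in wild-type distal colon (SD, n = 3), 105 ± 6.57 in FIP1KO and 170 ± 13.9 in FIP2KO, and between 36.6 and 56.2 CPM in the proximal groups. Clps, colipase, likewise chosen, was 18.2 ± 6.66, 4.01 ± 2.11 and 6.85 ± 3.996 CPM in the same distal groups. Both were called lower in both distal comparisons, as the only 2 of the 11 tested markers. Clps was the marker called lower in FIP1KO proximal colon (adjusted p = 0.0489).

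Across the 18 libraries, the genes with the pattern most like Sycn were Ghr, the growth hormone receptor (Pearson's r of log2 CPM 0.94), Retreg1, a receptor for turnover of the endoplasmic reticulum (0.93), Pxylp1 (0.93) and Rims4 (0.93), among 12403 candidate genes. Ghr stood at 26.9 ± 1.23 CPM in wild-type distal colon (SD, n = 3), 7.42 ± 0.80 in FIP1KO distal and 1.72 ± 0.62 in FIP1KO proximal colon. For Ang4 the nearest were Iqcb1 (0.89), Rras (0.86), Rap2a (0.85) and Plekha1 (0.83), and for Itln1 they were Ang4 (0.74), Iqcb1 (0.69), Rras (0.69) and Eepd1 (0.68). For Retnlb they were Gorab (0.84), Diaph2 (0.81), Casc4 (0.79) and Zfp820 (0.79). Rap2a, a small GTPase, fell from 48.8 ± 7.48 to 20.6 ± 0.67 and 21.1 ± 1.98 CPM from wild type to FIP1KO and FIP2KO in distal colon, a much smaller change than that of Ang4. These correlations include the group differences that the libraries share and carry no test.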

How the data were processed

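Per the labels, 18 polyA libraries (150 nt reads) were made from colonic epithelium, 3 for each of 6 groups. Per the submitters' processing notes the tools included STAR 2.5, TopHat, HTSeq 0.6.1 and DESeq2, with GRCm38 and mm10; their roles and the library strand are not given in the sources used here. The authors deposited whole-number counts per gene, used for all tests, and FPKM, used for levels between genes and for 3 alternatives. Of 54532 genes, 21436 had no count.

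The tests came from edgeR 4.0.16 in R 4.3.3, with filterByExpr (17692 genes), TMM factors and 1 quasi-likelihood fit to 18 libraries, and p-values were adjusted by Benjamini-Hochberg within a contrast. The SE is the log2 change divided by the square root of F. Alternatives used limma 3.58.1, DESeq2 1.42.0 and refits with filtering repeated. The code was tested on simulated counts, and figures were drawn with Python 3.11.15 and matplotlib 3.10.9. Counts of libraries within a group differed beyond sampling noise.

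The members and lists were chosen with earlier results of these data known. Named genes are the members, tested relatives, reference genes, up to 4 genes per list by adjusted p in the comparison described, and, for each member, the 4 genes with the highest r of log2 CPM (prior count 2) among those with a mean of at least 1 CPM and a symbol other than Gm or Rik. Samd4b, Cela1, Clps, Mptx1, Wfdc2, Sprr2a2, Il4, Il5, Il13, Il17a, Il17f, Il22, Il25 and Il33 were added after values were seen.

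Replicate numbers were checked by the correlation of deviations from group means. Same-numbered distal and proximal libraries had r of 0.36, 0.20 and 0.24 in FIP2KO, all over 0.1, and were taken as paired from the data. The main tests nevertheless used no block, and the pairing entered only the refit with a block by genotype. In FIP1KO r was 0.20, 0.18 and 0.07, against -0.17 to -0.003 for libraries of different number. In wild type r was -0.08, 0.11 and 0.17, against -0.18 to 0.06. Libraries of these genotypes were not taken as paired, although the values do not settle whether they were.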

Additional observations from a re-analysis of the deposited data

Results flagged for a closer look

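The fitted change of Itln1 had opposite signs in the segments in both knockouts, although its change in FIP2KO proximal colon did not pass the test. In FIP1KO the change in proximal colon exceeded that in distal colon by 5.19 on the log2 scale, and in FIP2KO by 3.86. Both values drew attention because every knockout library lay below the wild-type mean of log2 CPM in distal colon and above it in proximal colon. The difference was not tested, since Itln1 was chosen on it, and both values share the wild-type libraries. The level of Itln1 was low, and the FIP1KO value was 3.97 without FIP1KO proximal library 2. The call of Itln1 in FIP1KO proximal colon ended in 3 of the 18 refits that left out a library. It also ended when the compared libraries were fitted alone. FIP1KO proximal library 1, at 3.01 CPM, lay above the proximal wild-type mean of log2 CPM but below the mean of 3.14 CPM.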

How the results depend on the processing

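Of 452 changes of the 4 genes recomputed under other settings, 403 stayed the same, and of 792 with 1 library left out, 740 did. For tested comparisons, the same means the same direction and side of the threshold. For the 3 comparisons without a test, it means a move smaller than the gene's SD between replicates. The called falls of Sycn held under every alternative. Fitted changes near 0 that were called in neither fit turned sign: Ang4 in FIP1KO proximal colon was -0.0014 with a filter of at least 10 CPM in 3 libraries, -0.34 with the replicate block, -0.42 with limma on log2(FPKM + 1), filtered or not, and -0.43 with a pseudocount of 0.1; Itln1 between the distal knockouts was 0.0218 (block), 0.0113 (limma, + 1, filtered or not) and 0.0078 (+ 0.1); Retnlb in FIP2KO distal colon was 0.0256 (block), 0.14 (limma, + 1, filtered or not) and 0.142 (+ 0.1).

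Leaving out libraries gave these ranges. All genes called: FIP1KO against wild type 1775 to 3566 distal and 1509 to 2503 proximal, FIP2KO 1851 to 4089 and 1554 to 3608, FIP1KO against FIP2KO 105 to 530 and 190 to 945, proximal against distal 2045 to 2986 in wild type, 682 to 1414 in FIP1KO and 1062 to 1942 in FIP2KO. Members called: 1 to 3 in FIP1KO proximal, 3 in FIP2KO distal, 1 to 3 in FIP2KO proximal, 0 distally and 0 to 1 proximally between the knockouts, and 1 to 2, 2 to 4 and 1 to 3 between segments of wild type, FIP1KO and FIP2KO. Changes: Ang4 in FIP1KO proximal -2.38 to 1.25, Retnlb in FIP2KO distal -0.39 to 0.44 and between wild-type segments -0.18 to 0.91; between distal knockouts Ang4 -0.50 to 0.82, Itln1 -0.25 to 0.23 and Retnlb -0.40 to 1.35, and between proximal knockouts Retnlb -0.81 to 0.30. Segment differences: FIP1KO Ang4 4.11 to 7.76, Itln1 3.97 to 5.71, Sycn 0.12 to 1.45 and Retnlb 0.40 to 2.38; FIP2KO Sycn 0.51 to 1.61.

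Without a filter, 1154 and 1398 genes were called between the knockouts, with 2 and 3 members, and 3 members between wild-type segments. That fit gave each gene the trend's variance (prior degrees of freedom Inf against 6.99), so the SE of Ang4 in FIP2KO distal colon went from 1.06 to 0.24. The 10 CPM filter gave 140 genes between distal knockouts and 1025 between FIP2KO segments. Compared libraries alone gave 1287 genes and 1 member in FIP1KO proximal, 1511 genes in FIP2KO proximal and 1810 between wild-type segments. DESeq2 called 744 and 1059 genes between the knockouts, with 1 member in proximal colon. Limma (+ 1) called 312 genes between proximal knockouts and 1 member in FIP1KO proximal, and gave 3.92 for the segment difference of Itln1 in FIP1KO, filtered or not. At + 1 it also ended the calls of Ang4 in FIP2KO proximal (adjusted p = 0.0809), Itln1 in FIP1KO proximal (0.0518) and Itln1 between FIP2KO segments (0.0825), and unfiltered that of Itln1 in FIP2KO distal colon (0.0687). The 10 CPM filter ended the call of Retnlb in FIP2KO proximal colon (0.0515). With + 0.1 it called 204 and 261 genes between the knockouts and 1 member in FIP1KO proximal. Limma without a filter called 2063 genes in FIP2KO distal, 299 between proximal knockouts, and 1 member each in FIP1KO proximal, FIP2KO proximal and between FIP2KO segments. Without mitochondrial genes Sycn stood at 723 CPM in wild-type and 44.3 CPM in FIP1KO distal colon. Where no construction is named, the cause was not tested.

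With the replicate block across genotypes Retnlb in FIP1KO proximal colon was at 1.89 (adjusted p = 0.00873), Ang4 between wild-type segments at -2.26 (0.0161) and Retnlb between FIP1KO segments at 1.69 (0.0259), none of them called without the block. With that block 2 members were called between wild-type segments, and with the block by genotype, added after seeing the data, 3. Under the latter Ang4 was at -2.25 (adjusted p = 0.00967) and Itln1 at -1.58 (adjusted p = 0.00534) between wild-type segments. Retnlb was at 1.68 (adjusted p = 0.0118) between FIP1KO segments. Whether the wild-type and FIP1KO libraries were paired across segments is not settled by their correlations. Itln1, with the fewest counts, has the widest counting intervals.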
